A study of Mus musculus with 12 samples.

Results

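The immediate early transcription factors Fos, Fosb, Jun, Junb, Jund, Egr1, Egr2, Egr3 and Atf3, together with the immediate early gene Ier3, were followed in splenic dendritic cells (DCs) of the mouse. They are 10 of the 18193 genes that the array names, chosen by symbol: 14 probe sets were annotated to one of them alone, and all 14 passed the filter on low values. Jun, Jund, Egr2 and Egr3 had 2 probe sets each. For these, the probe set with the higher mean stands for the gene. The other is given beside it for treatment in WT cells. In the other comparisons it is given for some of these genes only, and for the interaction it is not given.

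DCs were taken from mice homozygous for alymphoplasia (aly), a mutation of Map3k14 that inactivates the kinase NIK, and from heterozygous littermates. The littermates, which carry 1 aly allele, are called WT as in the labels. Mice were left untreated or were injected intraperitoneally with 25 µg of lipopolysaccharide (LPS), a ligand of Toll-like receptor 4, and 100 µg of an agonistic antibody against CD40, and DCs were isolated 6 hours later. The 4 groups, untreated WT, untreated aly, treated WT and treated aly, held 3 arrays each, and the DCs of 3 mice were pooled for every array. The mutation was present in every cell of the aly mice, not in DCs alone, so the DCs of aly mice matured in an animal that lacks lymph nodes. The age of the mice is not given. Cells were selected with beads against CD11c before the flow sort.

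Immediate early genes are transcribed within minutes of a signal without new protein synthesis, and most of their mRNAs are short-lived. Fos and Jun proteins are basic leucine zipper factors that pair to form AP-1, which binds TGANTCA, whereas EGR proteins are zinc finger factors that bind GC-rich DNA. In DCs and macrophages these genes lie downstream of the MAP kinases and of serum response factor, and they are also known to be induced by tissue dissociation and cell sorting. The levels below therefore belong to cells that had been through isolation, in the treated and in the untreated groups alike, and no sample without isolation was measured.

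The treated aly array 1 stood apart from the other 11. Its mean log2 ratio of 3′ to 5′ control probe sets, which rises when RNA or its amplified copy is shortened, was 5.66, against 2.17 to 3.11 on the other aly arrays and 1.37 to 1.83 on WT arrays. Its hybridisation controls averaged 28529, against 2458 to 5768 elsewhere, and its rank correlation with any other array was 0.665 at most, where the highest of all pairs was 0.883. The 3′ to 5′ ratio was higher on every aly array than on any WT array, so it cannot be told apart from genotype. The poly-A control RNAs were lower on every replicate 1 array (4.15 to 21.8) than on replicates 2 and 3 (52.9 to 497), so values within replicate 1 and within replicates 2 and 3 are given for the called differences. The pan-DC markers (11 of 11 measured) summed to 59898 to 68462 in untreated WT, 71406 to 80160 in untreated aly, 45457 to 53620 in treated WT and 53020 to 108864 in treated aly. Markers of red pulp macrophages (12 of 12 measured) summed to 2525 to 17994 on untreated WT and 2603 to 16426 on treated WT arrays, but to 44427 to 73043 on untreated aly and 31689 to 60870 on treated aly arrays. No aly array overlapped a WT array of the same treatment for the sum of these macrophage markers. Taken singly, all 12 were higher in untreated aly and 11 of 12 in treated aly cells, and not all were called. Adgre1 was at 0.43 among untreated (limma, adjusted p = 0.867) and -0.58 among treated cells (0.636), and its arrays overlapped. Spic (0.72), Axl (0.42), Mertk (1.98) and Slc40a1 (4.39) overlapped among treated cells too. For Slc40a1, treated aly array 1 (281.1) lay below treated WT array 2 (478.8). Monocyte markers (7 of 8 measured) summed to 4469 to 9312, 10828 to 17167, 551 to 4547 and 9602 to 14468 in untreated WT, untreated aly, treated WT and treated aly, and erythroid markers (4 of 8) to 56.1 to 237, 885 to 1892, 45.4 to 357 and 566 to 2933. Neutrophil markers (7 of 10) summed to 14864 on treated aly array 1, against 947 and 314 on treated aly arrays 2 and 3, 258 to 2931 in untreated aly, 65.5 to 394 in untreated WT and 129 to 1017 in treated WT. B cell markers (6 of 7) summed to 4876 to 6458, 2855 to 6870, 1569 to 5664 and 1807 to 5057 in untreated WT, untreated aly, treated WT and treated aly, and T cell markers (3 of 7) to 268 to 516, 195 to 277, 1845 to 4339 and 329 to 887. Il7r gave most of the T cell sum in treated WT (1824.3, 2072.5 and 4320.7). Cd5 (-1.51) and Cd3g (-0.20) were lower with treatment there and not called. Csf1r gave most of each monocyte sum. Of the 7 monocyte markers 6 were higher and 1 lower in untreated aly than in untreated WT, and 4 higher and 3 lower among treated cells. In bulk samples such as these, fewer cells of a type and less RNA per cell cannot be told apart.

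Single markers differed as follows (log2 difference and limma adjusted p). With treatment in WT cells Irf4 (1.29, adjusted p = 0.0226), the macrophage factor Spic (2.52, 0.00791) and Il7r of the T cell list (3.35, 0.000179) rose, while Ciita (-1.59, 0.0417), Ccr2 (-2.32, 0.0142) and Cd79b (-1.42, 0.04997) fell. In untreated aly against untreated WT cells the macrophage genes C1qa (4.62), C1qc (4.54), Mertk (4.03) and Spic (3.17) and the erythroid gene Slc4a1 (4.69) were higher, with adjusted p between 0.0182 and 0.0266. In treated aly against treated WT cells Slc40a1 (4.39), Hmox1 (3.99), C1qb (3.88), Cd5l (3.79), Slc4a1 (4.02), Epor (1.61) and Csf1r (2.52) were higher, and Il7r (-2.08) and Irf4 (-2.72) lower, with adjusted p between 0.000688 and 0.0400. Of these calls, Il7r with treatment and Irf4 between treated groups were called without each of the 12 arrays in turn, and each other in 3 to 11 of the 12 omissions (adjusted p up to 0.255). Each had the same direction within replicate 1 and within replicates 2 and 3, and Slc40a1 was the farthest apart, at 0.96 and 6.11. The Slc40a1 arrays overlapped between the treated groups.

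Sequences of 250 bases upstream of the start were taken from RefSeq (GRCm38.p6) for 8 of the 10 genes, with 12 starts among them. No window of Egr1 or Egr3 was searched, so their motifs are not known here. The sequences shown, with motif matches in capitals, are those of Jun and Junb, because their signals rose with treatment in WT cells, of Fos, because its signal did not rise, and of Egr2, because it holds the site read by serum response factor. The windows lie at chr4:95052223-95052472 on the minus strand (Jun), chr8:84978749-84978998 on the minus strand (Junb) and chr12:85473640-85473889 on the plus strand (Fos).
Jun: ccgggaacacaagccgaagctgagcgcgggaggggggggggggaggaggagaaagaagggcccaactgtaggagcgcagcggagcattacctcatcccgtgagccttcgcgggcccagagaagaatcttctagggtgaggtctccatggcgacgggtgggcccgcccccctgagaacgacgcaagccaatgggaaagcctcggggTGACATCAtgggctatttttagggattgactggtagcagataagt
Junb: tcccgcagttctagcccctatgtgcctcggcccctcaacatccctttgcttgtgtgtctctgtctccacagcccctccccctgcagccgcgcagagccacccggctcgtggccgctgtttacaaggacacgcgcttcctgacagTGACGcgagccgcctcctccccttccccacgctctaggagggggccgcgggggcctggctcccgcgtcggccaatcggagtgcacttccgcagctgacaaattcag
Fos: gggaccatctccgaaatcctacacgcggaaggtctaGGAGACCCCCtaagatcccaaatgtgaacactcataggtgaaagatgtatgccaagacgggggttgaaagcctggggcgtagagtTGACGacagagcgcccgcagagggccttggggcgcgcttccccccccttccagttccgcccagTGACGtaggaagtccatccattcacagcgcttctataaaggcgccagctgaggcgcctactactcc
Egr2, chr10:67537484-67537513, plus strand: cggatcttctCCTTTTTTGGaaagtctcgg
Egr2, chr10:67537787-67537816, plus strand: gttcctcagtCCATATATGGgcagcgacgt

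Motifs were searched on both strands. The Jun window holds TGACATCA, a variant of the AP-1 site that is known from the human JUN promoter to bind Jun with ATF2, 45 to 38 bases upstream of the start. This motif was found in 2.93% of 32851 mouse windows of the same length. TGACG, the core of the cAMP response element, was found in 17.8% of all windows, and lies 106 to 102 bases upstream in Junb, at 129 to 125 and 66 to 62 in Fos, at 60 to 56 in Fosb and, on the minus strand, at 7 to 3 in Atf3. The capitals nearest the 5′ end of the Fos window are a kB site on the minus strand, the motif bound by NF-kB, found in 7.25% of windows. Kappa-B motifs also lie in the windows of Fosb, Ier3 and the first Egr2 start, and overlapping matches on both strands of Egr2 share their bases. The capitals in the Egr2 sequences are CArG boxes, the site of serum response factor, found in 1.47% of windows. The Egr2 windows with the second box hold TGACG on each strand as well. The Jund window holds none of the 5 motifs searched, and TGANTCA (6.75% of windows) was in none of the 12. Sites outside the windows of 250 bases were not searched, so a motif not found here may lie elsewhere at the same gene. These are matches of letters, and binding was not measured.

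**Figure D1:**
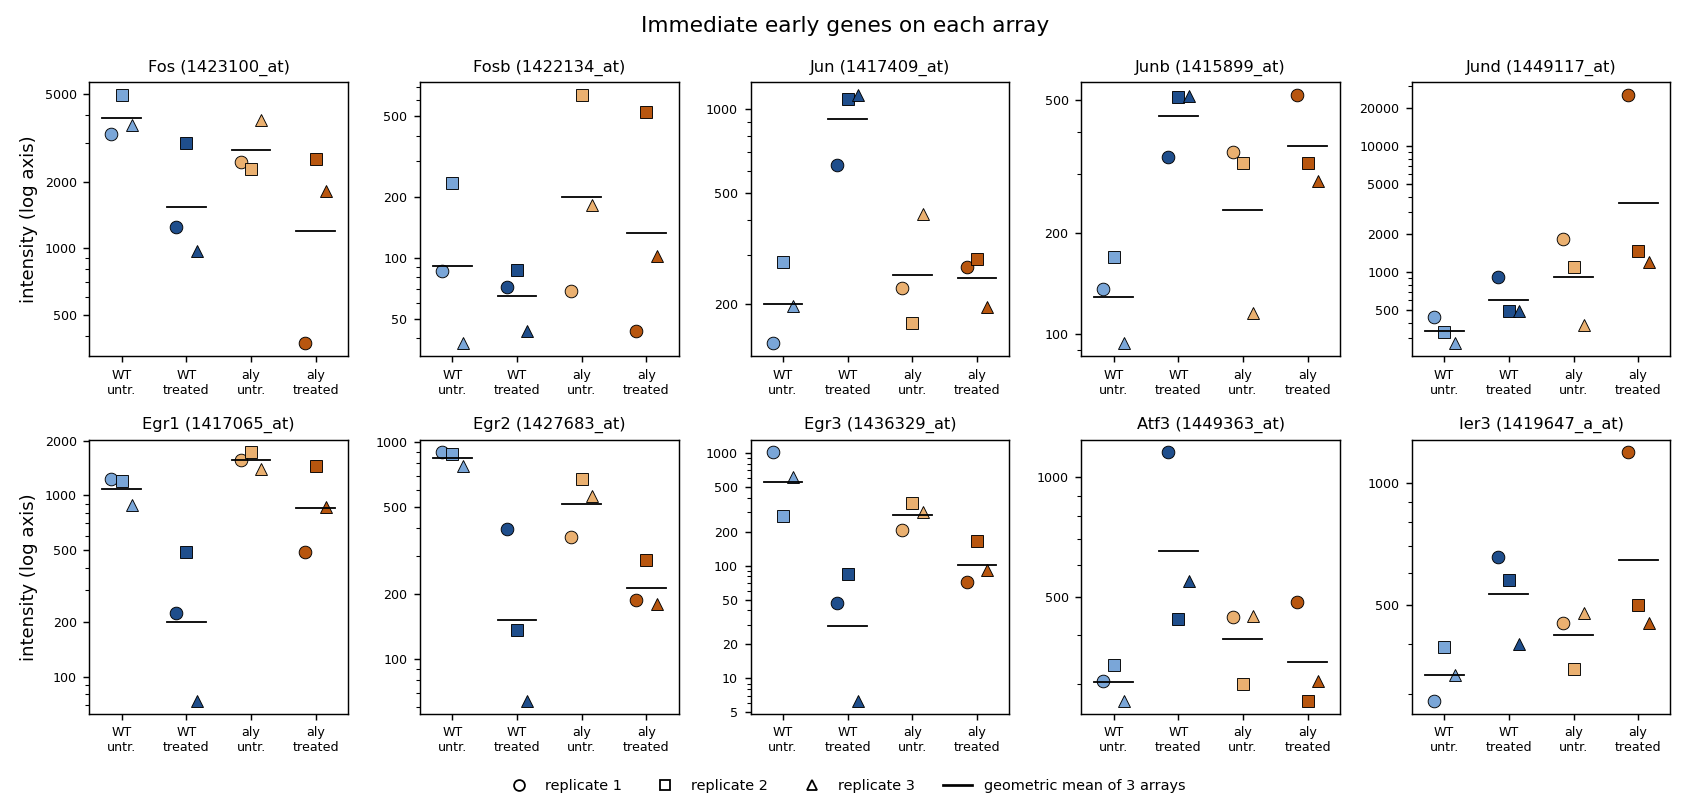
Intensity of each of the 10 genes on each of the 12 arrays (log axis, deposited linear units, a scale of its own for each gene), by group, with circles, squares and triangles for replicates 1, 2 and 3 and a bar at the geometric mean of 3 arrays. Jun lay between 633.2 and 1127.7 on the treated WT arrays and at 420.2 or below on the other 9, and Egr1 was lower on all 3 treated WT arrays than on untreated WT arrays.

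The effect of LPS with anti-CD40 in WT cells was asked first. Jun and Junb rose and Egr1, Egr2 and Egr3 fell, while Fos, Fosb, Jund, Atf3 and Ier3 did not pass the test. With 2 genes called higher and 3 called lower, 5 of 10 were called, against 9.71% of the 15019 genes tested (4.95% higher and 4.75% lower). The arrays of the groups did not overlap for 5 genes that were higher and 4 that were lower with treatment, and 14.3% and 22.1% of all genes were separated in this way. Of all calls 51% were higher, and 68.2% after median centring of the arrays, with 5 of the 10 genes called there too. The median change was 0.10 over the 10 genes and -0.12 over all genes on the log2 scale.

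Jun encodes the AP-1 subunit c-Jun. Its intensities were 144.4, 284 and 196.4 on the untreated WT arrays (replicates 1, 2 and 3) and 633.2, 1088.4 and 1127.7 on the treated ones. All treated arrays lay above all untreated arrays. The mean went from 208 ± 70.6 to 949.8 ± 275 (SD, n = 3 each), a log2 change of 2.11 ± 0.41 (SE) or 4.31-fold (limma, adjusted p = 0.00363). The change was 2.02 within replicate 1 and 2.15 within replicates 2 and 3, and it was called without each of the 12 arrays in turn. The second Jun probe set rose by 1.68 ± 0.45 (adjusted p = 0.0309), from 68.2, 276.6 and 73.9 to 391.8, 411.1 and 404.3 (2.28 within replicate 1 and 1.39 within replicates 2 and 3).

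Junb encodes a Jun family subunit that is a weaker activator than c-Jun at many AP-1 sites. Its intensities were 136.2, 169.4 and 93.9 on untreated WT arrays and 338, 509.9 and 514 on treated WT arrays, again without overlap. The mean went from 133 ± 37.8 to 454 ± 100.5 (SD, n = 3 each), a log2 change of 1.66 ± 0.43 or 3.17-fold (adjusted p = 0.0223), with 1.22 within replicate 1 and 1.89 within replicates 2 and 3. The call was lost without untreated WT array 1 (adjusted p = 0.0712) or 3 (0.112), without treated WT array 2 (0.0605) or 3 (0.103), and with an offset of 1 in place of 16 (0.0566). Jund, the Jun family member usually present at a steady level in resting cells, measured 439.8, 337.7 and 273.5 untreated and 921.4, 498 and 492.4 treated. Its arrays did not overlap, but its change of 0.80 ± 0.85 did not pass the test (adjusted p = 0.667), and its second probe set changed by 0.30 (adjusted p = 0.76).

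The 3 EGR genes encode growth factor-inducible zinc finger factors, of which Egr2 and Egr3 are best known in lymphocytes for restraining activation. Egr1 measured 1230.9, 1195.1 and 879 on untreated WT arrays and 224.1, 487.2 and 73.4 on treated WT arrays. The groups did not overlap, and the spread among treated arrays was wide. The mean fell from 1102 ± 194 to 262 ± 209 (SD, n = 3 each), a log2 change of -2.32 ± 0.53 (adjusted p = 0.0108), with -2.38 within replicate 1 and -2.30 within replicates 2 and 3. The call was lost without untreated WT array 1 (adjusted p = 0.0510) or treated WT array 3 (-1.67, adjusted p = 0.0726), and the change was -2.92 without treated WT array 2.

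Egr2 measured 894.3, 880.7 and 771.6 untreated and 396.3, 136.3 and 64.2 treated. The untreated arrays lay close together, and all were above the treated arrays. The mean fell from 849 ± 67.3 to 199 ± 175 (SD, n = 3 each), a log2 change of -2.33 ± 0.49 or 5.04-fold (adjusted p = 0.00641). Within replicate 1 it was -1.14 and within replicates 2 and 3 -2.93. It was -2.97 without treated WT array 1 and -1.78 without treated WT array 3, and called each time. The second Egr2 probe set changed by -1.63 ± 0.40 (adjusted p = 0.0184), from 218.4, 225 and 172.8 to 83.3, 65.6 and 28.5 (-1.24 within replicate 1 and -1.82 within replicates 2 and 3).

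Egr3 had the largest change of the 10 genes in this comparison. Its intensities were 1003.7, 273.8 and 611.4 untreated and 46.4, 84.9 and 6.3 treated, without overlap. The lowest of these lay under the level of the filter on low values (14.1 to 34.8 by array), where the offset compresses a fold. The mean fell from 629.6 ± 365 to 45.9 ± 39.3 (SD, n = 3 each), a log2 change of -3.46 ± 0.55 (adjusted p = 0.000765), with -4.03 within replicate 1 and -3.17 within replicates 2 and 3. The change was -4.16 with an offset of 1. It ranged from -3.94 to -2.85 when single arrays were left out, the smallest without treated WT array 3, and was called each time. The second Egr3 probe set, dim on every WT array (3.6 to 35.1), changed by -0.53 (adjusted p = 0.648), and the mean of both probe sets changed by -1.99.

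Fos, the AP-1 partner of the Jun proteins, measured 3298.4, 4947.2 and 3618.5 on untreated WT arrays and 1251.8, 3003.8 and 965 on treated WT arrays. All treated arrays were lower, but the change of -1.33 ± 0.59 or 2.52-fold did not pass the test (adjusted p = 0.185). It passed without treated aly array 1 (adjusted p = 0.0254), which adds only to the shared estimate of the spread. Fosb, a close relative of Fos, measured 85.8, 233.7 and 37.7 untreated and 71.6, 86.6 and 43.4 treated, which overlapped (-0.45 ± 0.78, adjusted p = 0.816). In each of the 4 groups replicate 2 gave the highest Fosb value, as it did for 2.08% of all genes. Replicate 1 gave the highest Jund value in each of the 4 groups, as it did for 2.67% of all genes.

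Atf3 encodes a stress-induced bZIP factor known to limit Toll-like receptor responses in macrophages. It measured 306.3, 335.9 and 272.5 untreated and 1157, 438.2 and 547.7 treated. The groups did not overlap, and treated array 1 lay well above the other treated arrays. The change of 1.07 ± 0.40 or 2.09-fold did not pass the test (adjusted p = 0.109), with 1.86 within replicate 1 and 0.67 within replicates 2 and 3; it passed without treated aly array 1 (adjusted p = 0.0433). Ier3, an NF-kB target whose product affects cell survival, measured 288.1, 391.4 and 334.1 untreated and 657.7, 574.6 and 400.2 treated. All treated arrays were higher, by a little for replicate 3, and the change was 0.64 ± 0.40 (adjusted p = 0.376).

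The pan-DC markers summed to less on every treated WT array (45457 to 53620) than on any untreated WT array (59898 to 68462), with Irf4 called higher, Ciita lower and the other 9 of 11 not called. The part of cell composition in these changes was not tested.

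**Figure D2:**
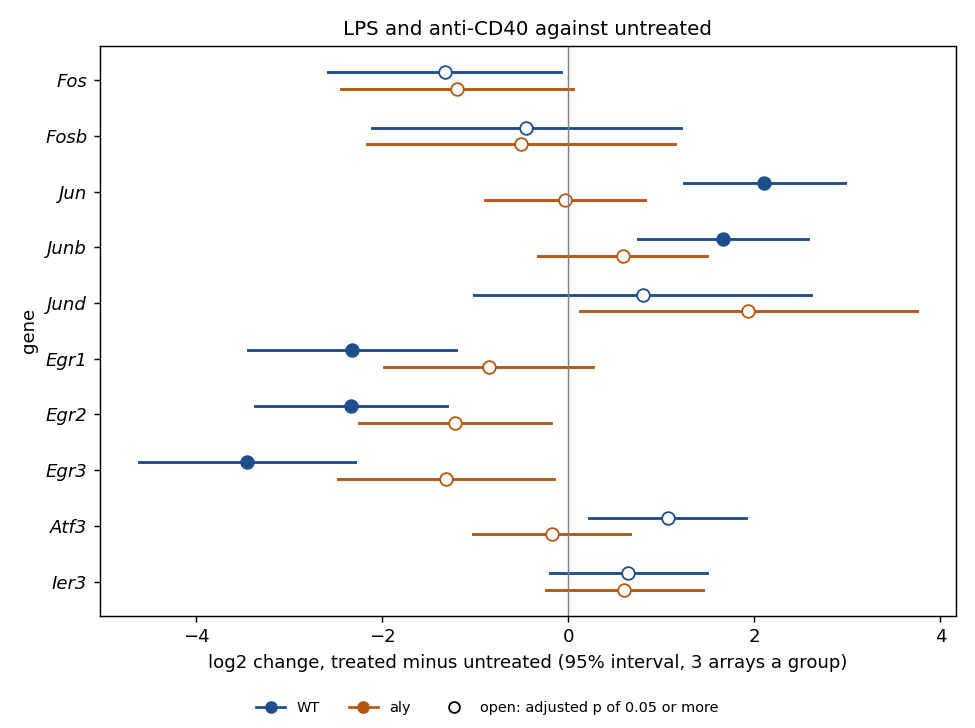
Log2 change with treatment (x axis) of each of the 10 genes in WT and in aly cells, with the 95% interval from limma and 3 arrays a group; filled points passed at an adjusted p under 0.05. In WT cells Jun and Junb were called higher and Egr1, Egr2 and Egr3 lower, and in aly cells no gene was called.

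The same treatment was then compared in aly cells. None of the 10 genes was called, where 0.486% of all genes were (0.453% higher and 0.0333% lower). At an unadjusted p under 0.05 they were 3 (Jund, Egr2 and Egr3), with no share of all genes at that level to set beside them. The arrays of 2 genes, Egr2 and Egr3, were lower with treatment without overlap, and none was higher without overlap, against 8.56% and 6.02% of all genes. Egr2 measured 364.2, 674.2 and 560.6 on untreated aly arrays and 186.6, 286.2 and 180.4 on treated aly arrays (-1.22 ± 0.49, adjusted p = 0.341). Its second probe set overlapped (147.5, 176.2 and 137.3 against 78.8, 195.2 and 128.8). Egr3 measured 206.7, 356.4 and 294.8 untreated and 71, 163.5 and 91.1 treated (-1.32 ± 0.55, adjusted p = 0.353). Its second probe set was higher on treated aly arrays by 0.94 (11, 7.5 and 67.6 against 105.6, 36.6 and 42.6) and did not pass either.

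Jun measured 228.8, 171.5 and 420.2 on untreated aly arrays and 271.6, 290.5 and 195.5 on treated aly arrays. The groups overlapped throughout, and the change was -0.03 ± 0.41 with a 95% interval of -0.90 to 0.83 (adjusted p = 0.981). Its second probe set also overlapped, at 144.5, 209.2 and 109.9 against 107.4, 183.7 and 175.2. Junb measured 348.2, 323.1 and 115.9 untreated and 517.1, 324.4 and 285.8 treated (0.58 ± 0.43, adjusted p = 0.558). Egr1 measured 1573.6, 1724.2 and 1388.4 untreated and 489.9, 1450.2 and 863.5 treated, where treated array 2 lay within the untreated range (-0.86 ± 0.53, adjusted p = 0.482; -0.47 without treated aly array 1).

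Several values in treated aly cells rested on array 1. Jund measured 1842.4, 1110.5 and 384.7 untreated and 25617.3, 1480.1 and 1204.5 treated, so array 1 lay far above every other array. The change was 1.93 ± 0.85 (adjusted p = 0.371), and 0.52 without that array. Fos measured 2462.3, 2287 and 3792.2 untreated and 369.7, 2540.5 and 1811.8 treated, with array 1 the lowest of all 12. Its change of -1.20 ± 0.59 (adjusted p = 0.395) became -0.37 without it. Ier3 measured 451, 345.8 and 477.9 untreated and 1193.2, 499.2 and 451.1 treated, and its change of 0.60 ± 0.40 (adjusted p = 0.516) became 0.17. Fosb overlapped between the groups (68.9, 639.9 and 182.5 untreated, 43.5, 524.3 and 102.5 treated), with a change of -0.51 that became 0.18. Atf3 overlapped as well (443.7, 300.9 and 445.3 against 483.7, 272 and 304.9), with a change of -0.18 ± 0.40.

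Untreated aly and untreated WT cells were compared next. None of the 10 genes was called, where 0.553% of all genes were (0.499% higher and 0.0533% lower); with the replicate number as a block 133 genes were called in place of 83, and again none of the 10. At an unadjusted p under 0.05 from limma the 10 gave 0 as well. Egr1 was higher on all untreated aly arrays than on all untreated WT arrays (0.51 ± 0.53, adjusted p = 0.785) and Egr2 was lower (-0.70 ± 0.49, adjusted p = 0.668), while the other 8 genes overlapped. The second Egr2 probe set overlapped (218.4, 225 and 172.8 in WT, 147.5, 176.2 and 137.3 in aly). Non-overlap of this kind was seen for 12.9% of all genes in the higher and 9.86% in the lower direction. The remaining differences ran from -0.95 ± 0.55 for Egr3 (adjusted p = 0.581) to 1.39 ± 0.85 for Jund (adjusted p = 0.610). The second Jund probe set measured 1, 5.2 and 6.5 in WT and 33.8, 30.4 and 46.2 in aly (1.38 ± 0.40, adjusted p = 0.175). It was above the filter level on 5 arrays, all of them aly. Every WT array, treated or untreated (1 to 12.9), lay under the lowest filter level of 14.1. It was thus tested only because of the aly arrays, and its difference is no support for one between genotypes. Of the red pulp macrophage markers 7 of 12 were called higher in untreated aly cells. Without treated aly array 1 it was 11 of 12, where 1.92% of all genes were higher. The part of these markers in the values above was not tested.

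Treated aly and treated WT cells differed in Jun, which was lower in aly, and in Egr1, which was higher. These 2 of 10 genes compare with 5.37% of all genes called (2.74% higher and 2.64% lower). Of all calls 50.9% were higher in aly, but 16.6% after median centring; the median difference was 0.19 over all genes and 0.34 over the 10. Median centring moved every difference by -0.35 here and by -0.25 among untreated cells, which turned the sign of the small Ier3 difference among treated cells. Arrays did not overlap for 2 genes that were higher in aly, Egr1 and Jund, and for 1 that was lower, Jun, against 14.1% and 10.1% of all genes. The treated WT arrays here are those of the treatment comparison in WT, so the values of both share them. The 3′ to 5′ ratio was also higher on every aly array than on any WT array, and cannot be told apart from genotype here.

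Jun measured 633.2, 1088.4 and 1127.7 in treated WT and 271.6, 290.5 and 195.5 in treated aly cells. Every aly array was below every WT array. The means were 949.8 ± 275 and 253 ± 50.3 (SD, n = 3 each), a log2 difference of -1.82 ± 0.41 or 3.53-fold (adjusted p = 0.0188), with -1.17 within replicate 1 and -2.14 within replicates 2 and 3. It was -1.88 without treated aly array 1 (adjusted p = 0.0143). The call was lost without treated WT array 2 (0.0602) or 3 (0.125), with an offset of 1 (0.0615) and when only the compared groups were fitted (0.0992). The second probe set differed by -1.32 (adjusted p = 0.104), with 391.8, 411.1 and 404.3 in WT and 107.4, 183.7 and 175.2 in aly.

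Egr1 measured 224.1, 487.2 and 73.4 in treated WT and 489.9, 1450.2 and 863.5 in treated aly cells. The lowest aly array lay just above the highest WT array. The means were 262 ± 209 and 935 ± 484 (SD, n = 3 each), a log2 difference of 1.97 ± 0.53 or 3.92-fold (adjusted p = 0.0416), with 1.08 within replicate 1 and 2.42 within replicates 2 and 3. It was 2.36 without treated aly array 1 (adjusted p = 0.0128). The call was lost in 9 of 12 omissions of 1 array: any untreated array of either genotype, treated WT array 1 or 3, or treated aly array 2 (adjusted p = 0.0543 to 0.232). It was also lost with median centring (1.62, adjusted p = 0.151), an offset of 1 (0.104), no filter (0.0514) and only the compared groups (0.192). In treated aly cells 5 of 12 red pulp macrophage markers were called higher, and 1 of 7 monocyte markers, Csf1r; their part in the Egr1 difference was not tested.

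Jund differed by 2.53 ± 0.85 (adjusted p = 0.0935) with no overlap, by 4.77 within replicate 1 and by 1.40 within replicates 2 and 3. It was 1.11 without treated aly array 1 (adjusted p = 0.215). Egr3 was higher in aly by 1.19 ± 0.55 (adjusted p = 0.207). Its second probe set differed by 1.61 (adjusted p = 0.0799), with 105.6, 36.6 and 42.6 in aly. On treated WT arrays it measured 3.6, 7 and 13.3, all under the lowest filter level of 14.1. Its difference is therefore no support for that of the first probe set. Atf3 was at -0.90 ± 0.40 (adjusted p = 0.191), with treated aly array 1 within the treated WT range. Fos (-0.35), Fosb (0.95), Junb (-0.28), Egr2 (0.42) and Ier3 (0.27) overlapped between genotypes, with adjusted p between 0.492 and 0.753. The second Egr2 probe set overlapped as well (83.3, 65.6 and 28.5 in WT, 78.8, 195.2 and 128.8 in aly). Without treated aly array 1 Fos was at 0.48 and Ier3 at -0.16.

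**Figure D3:**
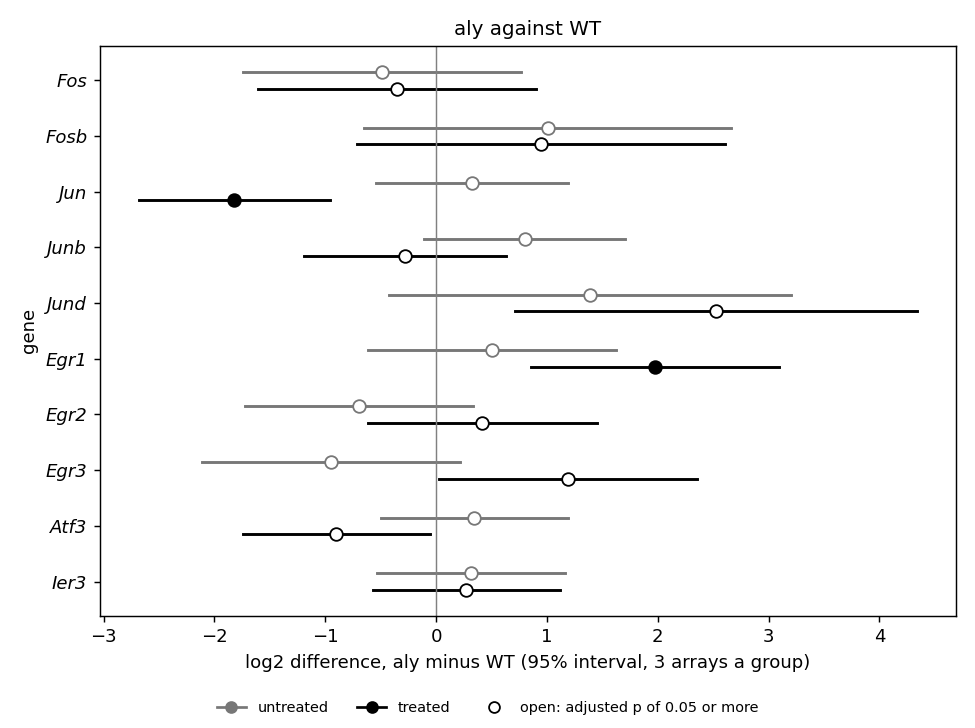
Log2 difference between aly and WT (x axis) of each of the 10 genes in untreated and in treated cells, with the 95% interval from limma and 3 arrays a group; filled points passed at an adjusted p under 0.05. Jun (-1.82) and Egr1 (1.97) passed among treated cells, and no gene passed among untreated cells.

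Whether the response differed between the genotypes was tested with the interaction term. None of the 10 genes was called, where 0.153% of all genes were, all of them in the lower direction. At an unadjusted p under 0.05 they were 3 (Jun, Egr3 and Atf3), again without a share of all genes at that level. Jun had the smallest p of the 10, with an interaction of -2.14 ± 0.58 (95% interval -3.36 to -0.92, unadjusted p = 0.00185, adjusted p = 0.252), at rank 110 of 15019 genes by p. Egr3 followed in size at 2.14 ± 0.78 (95% interval 0.50 to 3.78, adjusted p = 0.471). Egr1 (1.46 ± 0.75), Egr2 (1.11 ± 0.69), Atf3 (-1.25 ± 0.57) and Junb (-1.08 ± 0.61) had adjusted p between 0.607 and 0.723. Fos (0.13), Fosb (-0.06) and Ier3 (-0.04) were near 0, though the interval of Fos ran from -1.64 to 1.90. Without treated aly array 1 they were at 0.96, 0.64 and -0.48, and Jund went from 1.14 to -0.28. The treatment responses in WT and in aly cells of Jun, Junb, Egr1, Egr2 and Egr3 are thus not shown to differ, although those in WT passed the test and those in aly did not.

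Other AP-1 and bZIP partners were measured for 20 of 22 listed genes. In WT cells 4 of the 20 rose with treatment and none fell, where 4.95% of all genes rose and 4.75% fell. Without treated aly array 1 the list gave 8 higher, as calls over all genes went from 1458 to 2843 of 15019 (7.80% higher and 11.1% lower). The median change of the list was 0.80, against -0.12 over all genes. Batf2, an interferon-induced factor that pairs with Jun proteins, went from 10.1, 20.4 and 21.7 to 977, 438.1 and 260.1 (3.92 ± 0.52 or 15.1-fold, adjusted p = 0.00013). Its untreated values lay near the level of the filter on low values (14.1 to 34.8 by array), so the size of this fold depends on the offset. Jdp2, a Jun dimerisation partner that represses AP-1, went from 254.5, 205.6 and 192.7 to 1401.5, 1178 and 2000.8 (2.70 ± 0.41, adjusted p = 0.000486), whereas its other probe set changed by -0.17. Crem, a cAMP response modulator, rose by 1.99 ± 0.43 (adjusted p = 0.00814; 0.0576 without treated WT array 1; its other probe sets 0.85 and 2.65) and Batf, a Jun partner in DCs and T cells, by 1.59 ± 0.40 (adjusted p = 0.0201; lost without any 1 untreated WT array or treated WT array 1, up to 0.115). Within replicate 1 and within replicates 2 and 3 the changes were 5.25 and 3.26 for Batf2, 2.39 and 2.85 for Jdp2, 2.82 and 1.57 for Crem, and 2.33 and 1.22 for Batf.

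In aly cells 1 of these 20 was called (0.486% of all genes), Jdp2, which went from 415.3, 416.8 and 323.9 to 3478.2, 1200.8 and 1425.6. All treated arrays were higher (2.20 ± 0.41, adjusted p = 0.0252; 1.73, adjusted p = 0.0318, without treated aly array 1), and the call was lost without any 1 untreated aly array (up to 0.126). Among treated cells 1 of the 20 was higher and 1 lower (2.74% and 2.64% of all genes). Crem was lower in aly, at 129.6, 171.5 and 83.6 against 797.2, 255.2 and 530.5 in WT. The groups did not overlap (-1.82 ± 0.43, adjusted p = 0.0242), and the call was lost without treated WT array 1 or 3 (up to 0.133), while its other probe sets differed by -1.77 and 0.08. Maf, a macrophage and lymphocyte factor, was higher in aly by 3.37 ± 0.90 (adjusted p = 0.0417), with 1229.9, 2385 and 2032.5 against 620.3, 123.4 and 46.3. Its call was lost without untreated WT array 3, any 1 untreated aly array, or array 2 or 3 of either treated group (adjusted p up to 0.231), and its 4 other probe sets differed by 0.67 to 4.11; the part of the macrophage markers in it was not tested. Within replicate 1 and within replicates 2 and 3 the values were 3.02 and 1.79 for Jdp2 in aly, -2.48 and -1.49 for Crem, and 0.97 and 4.57 for Maf. Among untreated cells and for the interaction none of the 20 was called, and 4 and 2 had an unadjusted p under 0.05. Without treated aly array 1, 1 was called among untreated cells, against 2.64% of all genes.

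Of 24 other immediate early genes 23 were measured. In WT cells 5 of the 23 rose and 1 fell with treatment, where 4.95% of all genes rose and 4.75% fell, and the median was 0.04. Without treated aly array 1 the list gave 8 higher and 4 lower, as 18.9% of all genes were called in place of 9.71%. Gadd45b, which feeds into p38 and JNK signalling, went from 916.7, 666.4 and 504.5 to 7057.9, 6429 and 8533.8 (3.40 ± 0.43 or 10.6-fold, adjusted p = 0.000103). Its relative Gadd45g went from 163.5, 254.9 and 158.1 to 1478.2, 1668.4 and 1270.5 (2.86 ± 0.39, adjusted p = 0.000164). The nuclear receptor Nr4a3 rose by 2.63 ± 0.39 and Csrnp1, a nuclear factor induced by AXIN1, by 2.53 ± 0.40 (adjusted p = 0.000401 and 0.000676), while their other probe sets changed by 0.25 and 0.37 and by -0.51. Klf6 also rose (2.16) and Sgk1 fell (-2.49, lost without array 1 or 3 of untreated or of treated WT, adjusted p up to 0.0808); both were named after their values were seen. Within replicate 1 and within replicates 2 and 3 the changes were 2.92 and 3.64 for Gadd45b, 3.06 and 2.76 for Gadd45g, 2.79 and 2.55 for Nr4a3, 3.23 and 2.18 for Csrnp1, 2.33 and 2.08 for Klf6, and -3.36 and -2.06 for Sgk1.

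In aly cells Gadd45b alone of the 23 was called, going from 858.6, 582.5 and 672.6 to 7436, 2066.1 and 3336. It rose by 2.39 ± 0.43 (adjusted p = 0.0232; 1.89, adjusted p = 0.0295, without treated aly array 1), and the call was lost without any 1 untreated aly array (up to 0.121). Among treated cells 3 were lower in aly and none higher, against 2.64% and 2.74% of all genes (4 and 1 without treated aly array 1, against 2.98% and 4.13%). Gadd45g measured 567.7, 263.8 and 346.9 in aly, below every WT array (-1.92 ± 0.39, adjusted p = 0.0119; lost without treated WT array 3 or treated aly array 2, up to 0.0604). Nr4a3 was at 860.8, 954.8 and 1503.3 in aly against 4635.7, 2530.9 and 4831.2 in WT (-1.82 ± 0.39, adjusted p = 0.0154; lost without treated WT array 1 or 3 or treated aly array 2, up to 0.113), while its other probe sets differed by -0.12 and 0.15. Csrnp1 was at -1.49 ± 0.40 (adjusted p = 0.0404), and its other probe set at 0.72. Its call was lost without any 1 untreated or treated WT array, untreated aly array 1, or treated aly array 2 or 3 (up to 0.170). None of the 23 was called among untreated cells or for the interaction, and 2 and 5 had an unadjusted p under 0.05. Without treated aly array 1, each gave 1 call, against 2.64% and 0.752% of all genes. For the interaction Gadd45g was at -2.08 ± 0.54 (adjusted p = 0.235). Within replicate 1 and within replicates 2 and 3 the values were 3.09 and 2.04 for Gadd45b in aly, and among treated cells -1.36 and -2.21 for Gadd45g, -2.41 and -1.53 for Nr4a3 and -1.84 and -1.31 for Csrnp1.

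Kinases that act above AP-1 and EGR genes were measured for 11 of 14 listed members. In WT cells Map2k6, an activator of p38, was called lower with treatment (-2.22 ± 0.56, limma, adjusted p = 0.0203), where 4.75% of all genes were lower. The call was lost without any 1 untreated WT array or treated WT array 1 or 3 (adjusted p up to 0.133). Without treated aly array 1, 2 of the 11 were higher and 3 lower, against 7.80% and 11.1% of all genes. Among treated cells 2 kinases of the ERK cascade were lower in aly, as were 2.64% of all genes. Map2k1, which encodes MEK1, measured 246.4, 717.7 and 1025.2 in aly and 3669.9, 2819.5 and 4565.5 in WT. Map3k8, which encodes the TPL2 kinase downstream of Toll-like receptors and CD40, measured 32.5, 195.4 and 255.5 in aly and 997.4, 644.8 and 1220.2 in WT. Neither overlapped, at -2.63 ± 0.46 (adjusted p = 0.00561) and -2.74 ± 0.52 (adjusted p = 0.00968), and each call was lost without treated WT array 3 (0.0547 and 0.0816). For both, treated aly array 1 was the lowest array, and without it the differences were -2.05 (Map2k1, adjusted p = 0.00406) and -1.97 (Map3k8, adjusted p = 0.00499). Within replicate 1 and within replicates 2 and 3 they were -3.81 and -2.04 for Map2k1 and -4.39 and -1.92 for Map3k8, and the change of Map2k6 was -2.88 and -1.89.

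Serum response factor, its partners and EGR corepressors (8 of 8 measured) gave 1 call, a rise with treatment in WT cells, where 4.95% of all genes rose. It was that of the actin-sensing cofactor Mrtfa (1.91 ± 0.49, limma, adjusted p = 0.0223). The call was lost without untreated WT array 1 or 3 or treated WT array 2 or 3 (adjusted p up to 0.137). The rise was 1.73 within replicate 1 and 1.99 within replicates 2 and 3. Heat shock genes, which also respond to cell handling, gave no call in any comparison for 10 of 11 measured (1 in WT treatment and 3 among treated cells had an unadjusted p under 0.05), with a median change of 0.26 with treatment in WT. The largest of their differences were those of Hspa1a (-2.10 ± 0.59, adjusted p = 0.0503) and Hspa1b (-2.13 ± 0.62, adjusted p = 0.0563) between treated aly and treated WT cells; these are near-identical copies whose probes may share signal, and both were named after their values were seen. Map3k14 itself, whose mRNA level does not test the aly mutation, measured 116.9, 204.9 and 148.1 in untreated WT, 225.3, 154.7 and 121 in untreated aly, 461.9, 554.8 and 540.9 in treated WT and 81.8, 260.6 and 546.3 in treated aly.

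**Figure D4:**
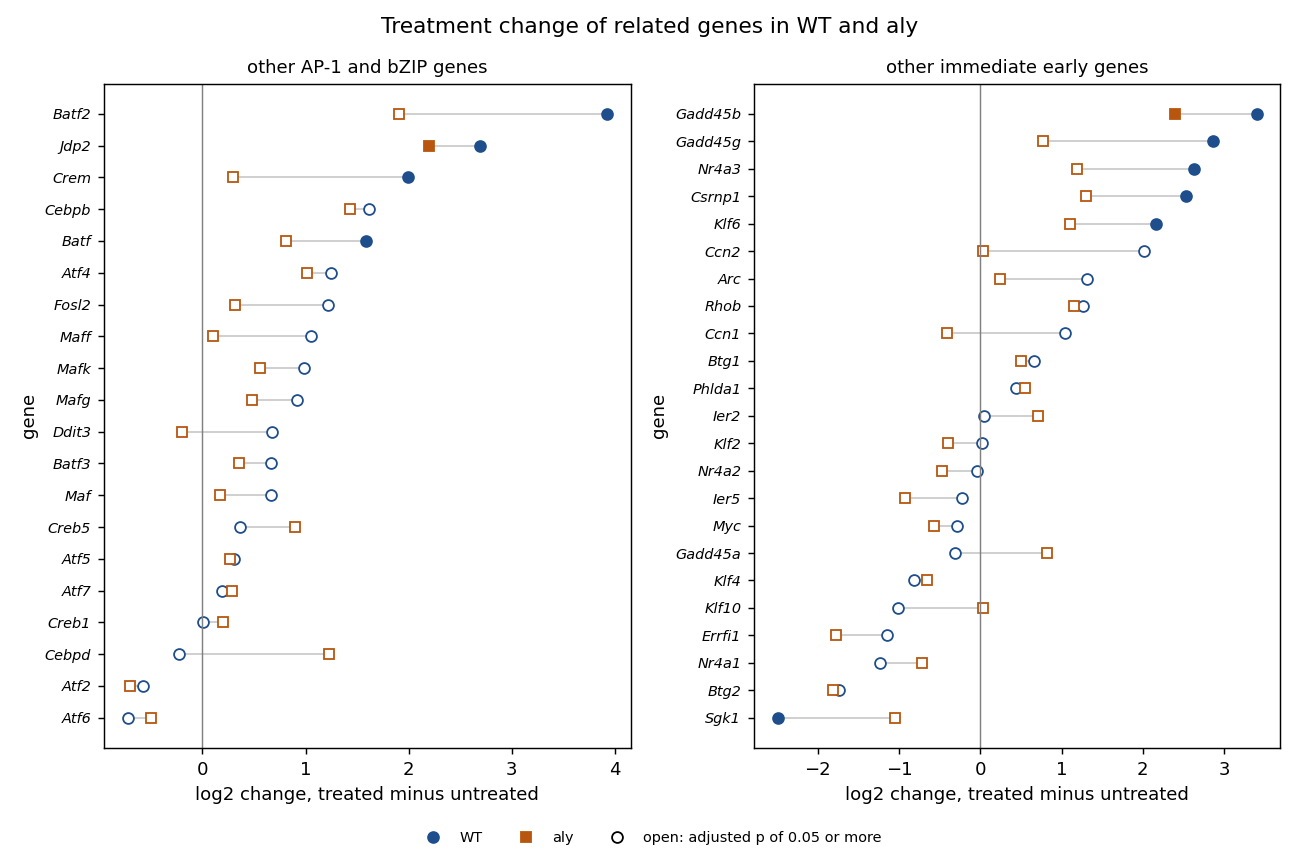
Log2 change with treatment (x axis) of the 20 other AP-1 and bZIP genes (left) and the 23 other immediate early genes (right) in WT cells (circles) and aly cells (squares), with genes ordered by the WT change; filled symbols passed at an adjusted p under 0.05. In WT cells Batf2 (3.92) and Gadd45b (3.40) had the highest values of their lists, and in aly cells only Jdp2 and Gadd45b were called.

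Across the 12 arrays the EGR genes varied together on the log2 scale (Pearson r = 0.88 for Egr2 with Egr3, 0.82 for Egr1 with Egr3 and 0.69 for Egr1 with Egr2), and Jun varied opposite to Egr1 (-0.76) and Egr3 (-0.76). These points share 4 groups and their arrays, and the values are a description. Of 15009 other genes, the one most like each was Pmm1 for Fos (r = 0.973), Fam214b for Fosb (0.972), Inhba for Jun (0.950), Tpst2 for Junb (0.973) and Zfp771 for Jund (0.975). It was Cln8 for Egr1 (0.973), Slc37a3 for Egr2 (0.928), Iqgap2 for Egr3 (0.959), Serping1 for Atf3 (0.912) and Lrg1 for Ier3 (0.942). Without treated aly array 1 these pairs correlated at 0.838 (Ier3 with Lrg1) to 0.981 (Atf3 with Serping1).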

How the data were processed

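Gene expression was measured on 12 Affymetrix mouse arrays with 45101 probe sets. The authors deposited 1 intensity a probe set and array on a linear scale, with a 2% trimmed mean of 150 on every array; their software and background correction are not named in the sources used here. Per the labels, RNA was extracted with RNeasy and labelled in a second in vitro transcription. Probe sets were named from GEO's platform annotation: 34945 had 1 symbol, 932 several and 9160 none, and only the first were used.

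Intensities were taken to log2(value + 16), and fold changes are on that scale, which understates changes of dim probe sets. Probe sets above the 40th percentile of the array on at least 3 arrays were kept. The probe set with the highest mean stood for each of 15019 genes. limma 3.58.1 in R 4.3.3 fitted the 4 groups together (8 residual degrees of freedom), p-values were Benjamini-Hochberg adjusted over all 15019 genes, and called means an adjusted p under 0.05. Second probe sets came from a fit of 27443 probe sets. The share of all genes at an unadjusted p under 0.05 is not given, so counts at that level cannot be read as an excess. Replicates are pools of 3 mice, so p-values measure the spread between pools, and the number of arrays limits the precision.

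The 10 genes and the 12 lists were chosen with earlier results of these data known. All 10 genes are named in every comparison, from each list up to 4 called genes with the smallest p, and for each of the 10 the most correlated gene. Same-numbered arrays deviated together between untreated aly and untreated WT (r = 0.156, 0.227 and 0.181), so the block is given there; in each other comparison a pair was below 0.1. The code was tested on simulated data. There were 27 alternatives, of which 12 left out 1 array, and 1 was added after the data were seen, as was the count for each list without treated aly array 1.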

Additional observations from a re-analysis of the deposited data

How the results depend on the processing

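The counts below are of the 10 genes called (5, 0, 0, 2 and 0 for treatment in WT, treatment in aly, genotype untreated, genotype treated and interaction). Leaving out 1 array at a time gave 3 to 7 for treatment in WT (3 without untreated WT array 1 or treated WT array 3, and 7 without treated aly array 1) and 0 to 3 for genotype among treated cells. For treatment in WT these fits called 710, 587 and 2843 of all genes. For genotype among treated cells the 0 came with 81 of all genes called, and the 3 with 1544. Genotype among treated cells gave 0 with an offset of 1, 1 after median centring of the arrays and 1 with no filter. It gave 0 with only the compared groups and 6 with array weights. Over all genes these settings called 229, 507, 739, 27 and 2886, against 807 in the main fit. Array weights gave 1 for genotype among untreated cells (Jund) and 2 for the interaction: Jun at -1.89 (adjusted p = 0.0460) and Egr3 at 2.70 (adjusted p = 0.0440). Over all genes the weights called 617 and 360 there, against 83 and 23 in the main fit. With the replicate number as a block the counts were 5, 0, 0, 3 and 0, the added gene being Jund among treated cells (2.53, adjusted p = 0.0285). Over all genes the block fit called 1666, 91, 133, 1108 and 30. In 3 of the comparisons at least 1 same-numbered pair deviated together only weakly (r below 0.1). Of 1290 values of single genes under other settings, 1249 kept their side of the threshold, 24 lost a call and 17 gained one. No called value turned its sign, and 48 uncalled ones did. Over all genes 1458, 73, 83, 807 and 23 were called, and 2843, 55, 396, 1068 and 113 without treated aly array 1. The fit of only the compared groups gives no interaction. With the 3′ over 5′ ratio as a covariate the counts were 7, 0, 0, 2 and 0, and over all genes 2781, 41, 133, 547 and 103. That ratio separates the genotypes on all arrays, so this fit cannot part the ratio from genotype. The second probe sets of Jund and Egr3 were dim, and no detection calls entered, so their differences are limited by signal. The cause of these shifts was not tested.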
